A study of Mus musculus with 2 samples.

Results

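Genes of the biliary epithelium, the simple keratins and Sox9 were followed in spatial transcriptomics of mouse liver. The set was chosen by gene symbol and holds 7 genes: Spp1, Epcam, Krt7, Krt19, Krt8, Krt18 and Sox9. Of these, 6 were found among the 19465 genes of the count files, and Krt18 is not analysed here. Liver sections were formalin-fixed and paraffin-embedded and were measured with the 10x Visium platform, in which probes against each gene are captured on barcoded spots, and each captured molecule is counted once by its unique molecular identifier (UMI). Each spot covers a patch of tissue in which cells of more than 1 type can lie. There was 1 section from 1 AEG-1DMAC mouse (the labels' spelling of the myeloid knockout) and 1 section from 1 AEG-1fl/fl mouse, so there was 1 library per genotype, without replicates. AEG-1fl/fl mice carry floxed alleles of the AEG-1 gene (Mtdh), and AEG-1DMAC mice carry the same floxed alleles together with Cre recombinase expressed from the lysozyme 2 (Lyz2) locus, which is active in myeloid cells such as macrophages, monocytes and neutrophils. Both mice were 27 weeks old. The labels give both a high fat and high sugar diet (HF/HSD) from 7 weeks of age, whereas the study's text describes this assay in littermates on a control diet, so the diet is uncertain, although it is given as the same for both.

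In healthy liver, bile ducts lie in the portal tracts and are lined by cholangiocytes, which carry keratins 7 and 19, the adhesion molecule EpCAM and the secreted phosphoprotein osteopontin (encoded by Spp1). Keratins 8 and 18 pair to form the intermediate filaments of hepatocytes and are also made by cholangiocytes. SOX9 is a transcription factor of cholangiocytes, is carried at lower levels by hepatocytes next to the portal tract, and can be induced in hepatocytes when ducts form or the liver is injured. Notch signalling drives biliary fate: ligands such as Jagged 1 activate Notch receptors, whose cleaved part joins RBPJ on DNA and switches on HES and HEY genes, and Sox9 is a known target. YAP, the effector of the Hippo pathway, also promotes biliary fate.

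All 6 measured genes are protein coding. In GRCm38, the assembly also called mm10, Spp1 (ENSMUSG00000029304) lies on the plus strand at chr5:104435118-104441050, Epcam (ENSMUSG00000045394) on the plus strand at chr17:87635979-87651129 and Sox9 (ENSMUSG00000000567) on the plus strand at chr11:112782224-112787760. Krt19 (ENSMUSG00000020911), a type I keratin, lies on the minus strand at chr11:100140810-100148665. Krt7 (ENSMUSG00000023039) and Krt8 (ENSMUSG00000049382) are type II keratins that lie near each other, on the plus strand at chr15:101411043-101430313 and on the minus strand at chr15:101996698-102004482. The bases before the RefSeq start (GRCm38.p6) are shown for Spp1, Epcam, Krt7 and Krt8, because Spp1, Epcam and Krt7 were found together in duct-rich spots while Krt8 was spread over the section. Each is written 5′ to 3′ on the strand of the gene. The window searched was 250 bases long, and each printed stretch stops where GENCODE places an untranslated exon of the gene, which takes 140 bases from Krt8 and 1 from Krt7. The windows were searched on both strands for 3 short motifs, none of which occurs in the printed stretches: TGGGAA for RBPJ, CATTCC for the TEAD partners of YAP and AACAAT for SOX factors.
Spp1 (chr5:104434861-104435110, plus strand): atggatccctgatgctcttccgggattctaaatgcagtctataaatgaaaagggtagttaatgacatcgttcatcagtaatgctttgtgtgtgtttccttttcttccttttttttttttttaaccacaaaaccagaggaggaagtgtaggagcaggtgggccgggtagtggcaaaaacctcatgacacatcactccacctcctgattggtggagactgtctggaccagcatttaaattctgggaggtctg
Epcam (chr17:87635729-87635978, plus strand): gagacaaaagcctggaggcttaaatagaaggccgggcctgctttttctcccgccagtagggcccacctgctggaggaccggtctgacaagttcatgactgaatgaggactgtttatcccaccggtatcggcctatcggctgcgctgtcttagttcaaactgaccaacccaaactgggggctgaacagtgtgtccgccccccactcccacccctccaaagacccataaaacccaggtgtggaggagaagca
Krt7 (chr15:101412153-101412401, plus strand): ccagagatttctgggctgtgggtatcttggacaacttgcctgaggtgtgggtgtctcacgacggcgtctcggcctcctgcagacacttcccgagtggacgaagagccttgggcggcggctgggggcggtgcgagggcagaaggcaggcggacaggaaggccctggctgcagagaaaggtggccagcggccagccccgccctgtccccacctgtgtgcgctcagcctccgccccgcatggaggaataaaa
Krt8 (chr15:102004483-102004592, minus strand): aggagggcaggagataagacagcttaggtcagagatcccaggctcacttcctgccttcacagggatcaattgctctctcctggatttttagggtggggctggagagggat
No window is shown for Krt19 and Sox9. The Krt7 window overlaps exons that GENCODE gives to a noncoding transcript of Krt7 and, on the other strand, to the antisense gene Gm671. Of the 4 searched windows, 1 held a match: Krt8 had TGGGAA with its first base 134 bases before the RefSeq start, inside the part that is not printed. In the 250 bases before all 32851 starts of the same table, TGGGAA was found in 21.6%, CATTCC in 12.6% and AACAAT in 9.42%. A match of 6 letters is a description of the sequence and shows no binding.

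With the filter on spots that the study describes, AEG-1DMAC kept 2140 spots (45453286 UMIs) and AEG-1fl/fl kept 2540 spots (50322850 UMIs), with a median of 20929.5 and 18285 UMIs per spot. Levels are given as UMI counts scaled to a library total of 1000000 (CPM) with exact Poisson 95% intervals, and differences between libraries as log2 ratios of CPM, AEG-1DMAC over AEG-1fl/fl, with exact conditional 95% intervals. These intervals reflect sampling of UMIs alone and leave out how mice or sections vary, and no hypothesis test was possible with 1 library per genotype. Averaged over both libraries, 11178 genes reached 1 CPM and were compared, and their median log2 ratio was 0.13. Albumin, which took 8.80% of all UMIs in AEG-1DMAC and 14.2% in AEG-1fl/fl, was lower in AEG-1DMAC. Where 2 values stand side by side without names, the first is that of AEG-1DMAC. Mtdh itself was at 66.3 CPM in AEG-1DMAC and 60.2 CPM in AEG-1fl/fl, which checks nothing about the knockout, because most cells of a liver section are not myeloid. Of the AEG-1DMAC barcodes, 82.9% also occurred by name in AEG-1fl/fl (70.1% of its barcodes), as spots of all capture areas carry barcodes from a common list. Probe pairs differ in their efficiency from gene to gene, so differences are read between libraries or places. Levels or shares set side by side across genes, and sums over genes, are rough descriptions only. In these bulk spots, fewer cells of a type and less RNA per cell cannot be told apart.

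Sox9 was the member that differed most between the libraries, and it was lower in AEG-1DMAC. Its level was 13.8 CPM (12.7 to 14.9, 627 UMIs) in AEG-1DMAC and 25.9 CPM (24.5 to 27.3, 1302 UMIs) in AEG-1fl/fl. The intervals were far apart, the ratio was 1.88-fold and its log2 value was -0.91 (-1.05 to -0.77). The duct genes went the other way by a much smaller margin. Spp1, which encodes osteopontin, was at 67.1 CPM (64.7 to 69.5) in AEG-1DMAC and 56.9 CPM (54.8 to 59) in AEG-1fl/fl. This is a log2 ratio of 0.24 (0.16 to 0.31), of which 0.11 lay above the median of all genes.

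The other duct genes were rare. Epcam, which encodes a cell adhesion molecule of the epithelium, was at 3.12 CPM (142 UMIs) and 2.60 CPM (131 UMIs), with a log2 ratio of 0.26 (-0.09 to 0.62). Krt7 was at 2.05 CPM (93 UMIs) and 1.79 CPM (90 UMIs), with a log2 ratio of 0.19 (-0.24 to 0.63). Krt19, the type I partner of Krt7 in duct cells, was at 1.23 CPM (56 UMIs) and 0.994 CPM (50 UMIs), with a log2 ratio of 0.31 (-0.27 to 0.89). For these 3 genes a difference between the libraries was not detectable at this depth. Summed, the 4 duct genes gave 73.5 CPM in AEG-1DMAC and 62.3 CPM in AEG-1fl/fl (log2 ratio 0.24, 0.17 to 0.31), and Spp1 supplied most of that sum.

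Krt8, the type II keratin of both hepatocytes and cholangiocytes, was at 51.0 CPM (48.9 to 53.1, 2317 UMIs) in AEG-1DMAC and 53.1 CPM (51.1 to 55.1, 2670 UMIs) in AEG-1fl/fl. The log2 ratio was -0.06 (-0.14 to 0.02), so the counting intervals of the libraries overlapped. Other scalings of the libraries shifted every log2 ratio by -0.12 to -0.14, which put Krt8 at -0.18 (-0.26 to -0.10) with trimmed mean of M-values (TMM) factors and Spp1 at 0.11 (0.04 to 0.19). When a difference of at least 1.5-fold with an interval on the same side was counted, 1 of the 6 measured members was lower in AEG-1DMAC (Sox9), against 3.9% of all 11178 genes, and 0 were higher, against 5.28% of all genes.

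**Figure D1:**
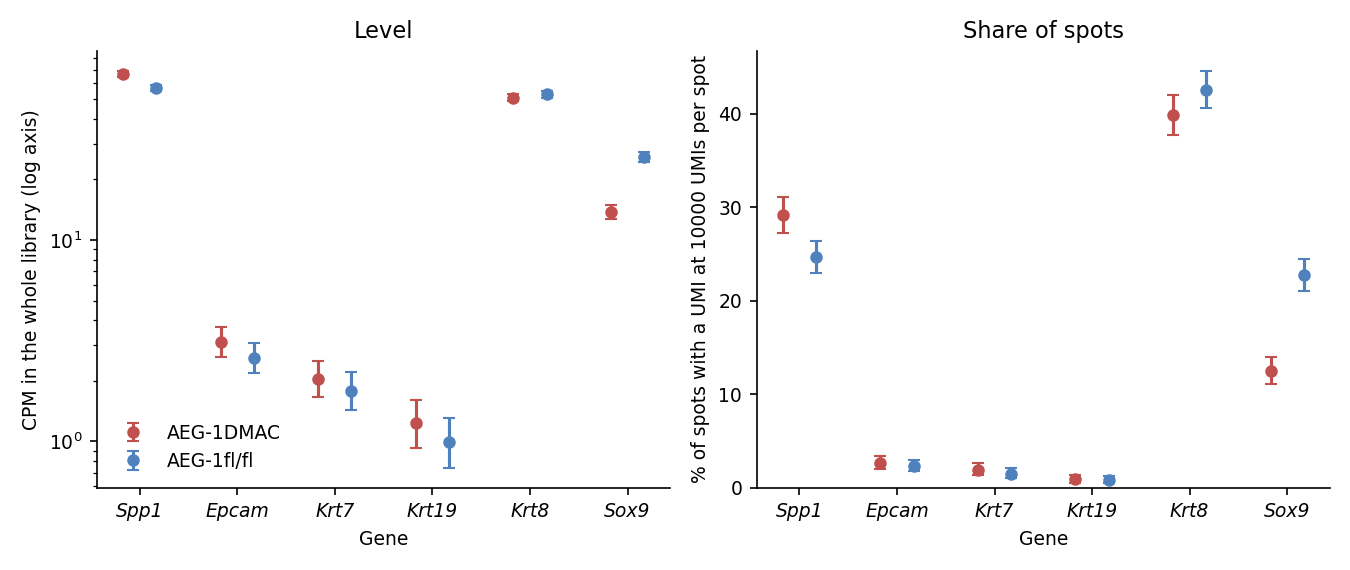
Level in the whole library (left, CPM on a log axis) and share of spots with a UMI after each spot was thinned to 10000 UMIs (right, percent) for the 6 measured members. Points are single libraries and bars are exact 95% intervals of counting error. Sox9 is at 13.8 against 25.9 CPM and in 12.5% against 22.7% of spots, and the other members lie close together in the 2 libraries.

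The share of spots with a UMI depends on depth, and AEG-1DMAC spots were deeper, so each spot was thinned to 10000 UMIs, which left out 26 AEG-1DMAC and 106 AEG-1fl/fl spots. Sox9 was then found in 12.5% (11.1 to 14.0) of 2114 AEG-1DMAC spots and 22.7% (21.1 to 24.4) of 2434 AEG-1fl/fl spots (exact Clopper-Pearson intervals), and in 24.2% and 38.0% before thinning. Sox9 RNA was spread thinly in both libraries, with at most 3 UMIs in a thinned AEG-1DMAC spot and at most 4 in a thinned AEG-1fl/fl spot. Spp1 was found in 29.1% and 24.7% of thinned spots (45.0% and 35.2% before thinning), with up to 38 and 31 UMIs in a thinned spot.

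Epcam was found in 2.65% and 2.34% of thinned spots (5.05% and 4.09% before thinning), Krt7 in 1.94% and 1.52% (3.64% and 3.07%), and Krt19 in 0.899% and 0.822% (1.96% and 1.57%). Krt8 was found in 39.8% (37.7 to 42.0) and 42.5% (40.5 to 44.5) of thinned spots (64.0% and 63.2% before thinning). Keratins of stratified and gut epithelium gave the background for genes that liver is not known to make. Krt1, Krt5, Krt13, Krt14 and Krt20 had 0 UMIs in both libraries, which allows a share of up to 0.142% of thinned AEG-1DMAC spots and 0.123% of thinned AEG-1fl/fl spots (3 counts), below the shares of Krt7 and Krt19. Krt4 had 3 UMIs in AEG-1DMAC and 2 in AEG-1fl/fl. Krt10 was found in 5.16% and 6.08% of thinned spots, so this keratin was not at background.

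Duct genes shared spots. Among thinned AEG-1DMAC spots, Spp1 was found in 41 of 56 with Epcam (73.2%), 24 of 41 with Krt7 (58.5%) and 16 of 19 with Krt19 (84.2%), against 27.9%, 28.6% and 28.6% of spots without that gene. In AEG-1fl/fl, Spp1 was found in 42 of 57 spots with Epcam (73.7%), 20 of 37 with Krt7 (54.1%) and 14 of 20 with Krt19 (70%), against 23.5%, 24.2% and 24.3% of the others. Sox9 was found in 17.2% (14.3 to 20.4) of AEG-1DMAC spots with Spp1 and 10.5% (9.04 to 12.2) of those without. In AEG-1fl/fl it was found in 26.5% (23.0 to 30.2) of spots with Spp1 and 21.5% (19.6 to 23.4) of those without, and these intervals overlapped slightly. Krt8 differed little by this measure, at 41.1% with and 39.3% without Spp1 in AEG-1DMAC, and 44.5% and 41.9% in AEG-1fl/fl.

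To ask whether Sox9 follows the ducts inside a section, spots were ranked by the share of their UMIs from the 4 duct genes, and the top 5% were called duct-rich: 107 AEG-1DMAC spots with 3 to 92 duct gene UMIs (median 12) and 127 AEG-1fl/fl spots with 1 to 100 (median 9). For each duct gene the ranking was made from the other 3, so that a gene did not choose its own spots. Duct-rich spots had a median of 19742 UMIs in AEG-1DMAC and 17308 in AEG-1fl/fl, close to the 20995 and 18350 of the remaining spots. The label was checked on other cholangiocyte genes, which did not choose the spots: all 10 of those that reached 1 CPM were at least 2-fold higher in duct-rich spots in both libraries, among them Tspan8, Prom1, Cldn7 and Ehf. Of the portal fibroblast genes compared, 5 of 6 were also at least 2-fold higher there in both libraries, as were 3 of 3 smooth muscle genes, so duct-rich spots also held RNA of other portal cells. Over all genes, the share at least 2-fold higher in duct-rich spots was 9.73% in AEG-1DMAC and 6.64% in AEG-1fl/fl.

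Of the 6 measured members, 5 were at least 2-fold higher in duct-rich than in other spots in AEG-1DMAC, against 9.73% of all 11178 genes, and the same 5 in AEG-1fl/fl, against 6.64%, both backgrounds by the ranking from all 4 duct genes. Krt8 was the exception. Krt19 had the highest ratio, 16.1 CPM in duct-rich and 0.463 CPM in other spots of AEG-1DMAC, a log2 ratio of 5.12 (4.29 to 5.99), and 10.2 and 0.462 CPM in AEG-1fl/fl (log2 ratio 4.46, 3.60 to 5.34). Epcam had log2 ratios of 4.41 (3.91 to 4.90) and 4.29 (3.77 to 4.81). The Krt7 ratios were 4.06 (3.44 to 4.68) and 3.27 (2.60 to 3.92), and those of Spp1 were 3.69 (3.58 to 3.79) and 3.47 (3.36 to 3.58).

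Sox9 was also higher in the duct-rich spots, but over a base in the remaining spots that differed between the libraries. In AEG-1DMAC it was at 45.5 CPM in duct-rich and 12.2 CPM in other spots, a log2 ratio of 1.90 (1.58 to 2.21). In AEG-1fl/fl it was at 56.1 CPM in duct-rich and 24.1 CPM in other spots, a log2 ratio of 1.22 (0.96 to 1.46). The excess of Sox9 in duct-rich over other spots was 33.4 CPM in AEG-1DMAC and 31.9 CPM in AEG-1fl/fl. Duct-rich spots held 16.1% (13.3 to 19.2) of all Sox9 UMIs in AEG-1DMAC and 11.8% (10.1 to 13.7) in AEG-1fl/fl, against 37.8% and 36.2% for Spp1 and 64.3% and 56% for Krt19. Most Sox9 RNA of both sections thus lay outside the duct-rich spots.

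Krt8 differed little between duct-rich and other spots, with log2 ratios of 0.28 (0.02 to 0.53) in AEG-1DMAC and 0.38 (0.16 to 0.60) in AEG-1fl/fl, and only 5.87% and 7.00% of its UMIs lay in duct-rich spots, which held 4.88% and 5.46% of all UMIs.

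**Figure D2:**
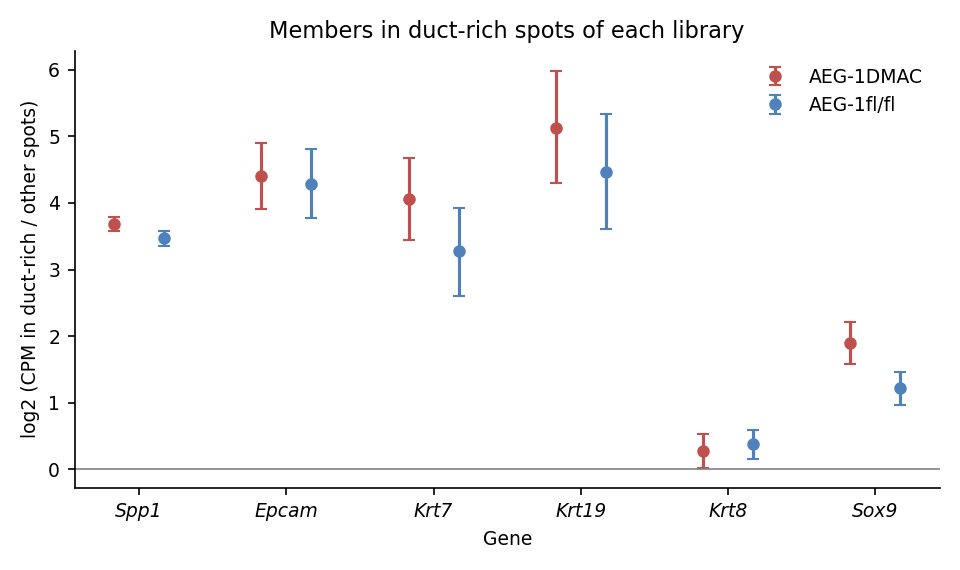
Log2 ratio of CPM in duct-rich spots over all other spots of the same library for each measured member, with exact 95% intervals of counting error. The duct genes lie between 3.27 and 5.12, Sox9 at 1.90 in AEG-1DMAC and 1.22 in AEG-1fl/fl, and Krt8 near 0.

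The difference between the libraries was then taken place by place. In duct-rich spots Sox9 was at 45.5 CPM (37.1 to 55.3, 101 UMIs) in AEG-1DMAC and 56.1 CPM (47.5 to 65.6, 154 UMIs) in AEG-1fl/fl (log2 ratio -0.30, -0.68 to 0.07), an interval that held 0. This reading depends on the scaling and on how the spots were chosen. The interval lay below 0 with TMM factors (-0.42, -0.80 to -0.05), with the top 10% of spots (-0.39, -0.70 to -0.08) and with spots ranked by the other cholangiocyte genes (-0.49, -0.91 to -0.07), and held 0 with the top 2% (-0.14, -0.65 to 0.35). The duct-rich spots of the libraries also differed in other cells: Kupffer cell markers summed to 367 CPM in AEG-1DMAC and 612 CPM in AEG-1fl/fl, against 570 and 536 CPM in the remaining spots, and the part of this in the Sox9 values was not tested. In all other spots the log2 ratio was -0.99 (-1.14 to -0.84). Spots without duct RNA were defined as those with 0 UMIs of the 4 duct genes after thinning to 10000 UMIs, which held for 1464 AEG-1DMAC spots (69.3%) and 1796 AEG-1fl/fl spots (73.8%). In their full counts these spots still held 14.9 and 11.3 CPM of duct gene UMIs, so they are poor in duct RNA and not free of it. Spp1 supplied 3049 of the 3340 duct gene UMIs in AEG-1DMAC and 2863 of 3134 in AEG-1fl/fl. Duct RNA in a spot therefore mainly means Spp1 RNA, and whether it came from duct cells was not tested. In spots without duct RNA, Sox9 was at 11.2 CPM (10.1 to 12.5, 355 UMIs) in AEG-1DMAC and 23.7 CPM (22.1 to 25.4, 853 UMIs) in AEG-1fl/fl (log2 ratio -1.08, -1.26 to -0.90), or 2.11-fold.

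These spots held 56.6% of all Sox9 UMIs in AEG-1DMAC and 65.5% in AEG-1fl/fl, and they made up 69.3% and 73.8% of the thinned spots. Sox9 was thus below its whole-library level there, at 11.2 against 13.8 CPM in AEG-1DMAC and 23.7 against 25.9 CPM in AEG-1fl/fl. Their share of the duct gene UMIs, 14.1% and 13.0%, is low by construction, because these genes chose the spots. The log2 ratio of Sox9 between the libraries was higher in duct-rich spots than in spots without duct RNA by 0.78 (0.37 to 1.18), an interval that covers counting error only. Krt8 in spots without duct RNA was at 49.9 and 51.7 CPM, a log2 ratio of -0.05 (-0.15 to 0.05). In spots that held some duct RNA and were not duct-rich, Sox9 was at 14.6 CPM in AEG-1DMAC and 25.6 CPM in AEG-1fl/fl (log2 ratio -0.81, -1.09 to -0.53).

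Expressed per duct RNA, which is free of the scaling between libraries, there were 0.188 Sox9 UMIs for each duct gene UMI in AEG-1DMAC and 0.415 in AEG-1fl/fl (log2 ratio -1.15, -1.30 to -0.99). Most of this duct RNA was Spp1, and without Spp1 the log2 ratio was -1.16 (-1.43 to -0.88). Within duct-rich spots the same quantity was 0.0557 and 0.0867, a log2 ratio of -0.64 (-1.01 to -0.26). The duct gene UMIs that form this denominator also chose the spots, so the value does not test whether Sox9 differed in ducts. In CPM, Sox9 in duct-rich spots had the log2 ratio of -0.30 (-0.68 to 0.07) given above, which depended on the scaling and the choice of spots. The ratio of Sox9 to Krt8 was 0.271 and 0.488, a log2 ratio of -0.85 (-1.01 to -0.69). Per Spp1 UMI there were 0.0466 and 0.0458 Epcam UMIs (log2 ratio 0.03, -0.32 to 0.38) and 0.0305 and 0.0314 Krt7 UMIs (-0.04, -0.47 to 0.38). For Krt19 there were 0.0184 and 0.0175 UMIs (0.07, -0.48 to 0.63). All 3 intervals held 0 and were wide, so a difference in these proportions was not detectable at this depth.

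Spots were also sorted by the number of duct gene UMIs, which were mostly of Spp1, in a thinned spot. With 0 duct gene UMIs there were 11 Sox9 UMIs per 100 spots in AEG-1DMAC (9.36 to 12.8) and 24.1 in AEG-1fl/fl (21.9 to 26.5). With 1 duct gene UMI there were 14.4 and 25.7, and with 2 there were 13.5 and 25.5. Sox9 was higher from 3 to 5 duct gene UMIs on, where there were 26.6 and 43.4 per 100 spots. It reached 40.6 and 62.5 at 6 to 10, and 84.6 (53.0 to 128) and 104 (66.9 to 155) at 11 or more, where 26 and 23 spots were left and the intervals of the libraries overlapped. Krt8 was at 51.6 and 53.4 UMIs per 100 spots with 0 duct gene UMIs and at 92.3 and 78.3 in the spots richest in duct RNA.

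**Figure D3:**
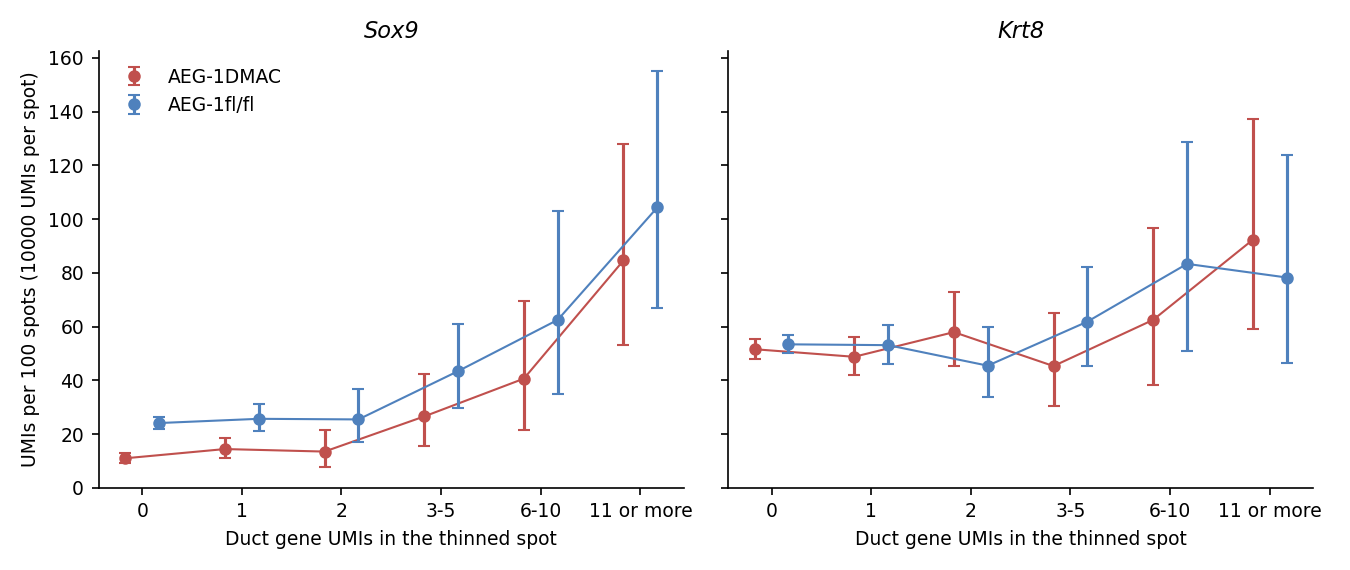
UMIs of Sox9 (left) and Krt8 (right) per 100 spots, each spot thinned to 10000 UMIs, against the number of duct gene UMIs in the spot. Points are single libraries and bars are exact Poisson 95% intervals. Sox9 is level from 0 to 2 duct gene UMIs, at 11 to 14.4 in AEG-1DMAC and 24.1 to 25.7 in AEG-1fl/fl, and is higher in both libraries from there.

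Sox9 also followed the lobule. Spots were ranked within each library from zone 1 (periportal) to zone 3 (pericentral) by the zone markers of the study and divided into 3 equal parts. In AEG-1DMAC, Sox9 was at 19.2 CPM in the zone 1 part, 14.1 CPM in the middle part and 8.06 CPM in the zone 3 part, a zone 3 over zone 1 log2 ratio of -1.25 (-1.57 to -0.94). In AEG-1fl/fl it was at 34.4, 25.0 and 18.2 CPM, a log2 ratio of -0.92 (-1.13 to -0.71). AEG-1DMAC was lower than AEG-1fl/fl in every part, with log2 ratios of -0.84 (-1.05 to -0.64), -0.82 (-1.06 to -0.58) and -1.17 (-1.49 to -0.87). The summed zone 3 markers were at 8543 CPM in AEG-1DMAC and 3498 CPM in AEG-1fl/fl, and among genes not used for the ranking Slc1a2 was at 127 and 58.2 CPM and Cyp2c29 at 1867 and 1115 CPM, so a part of the ranking can lie at different distances from the portal tract in the 2 sections, and the part of this difference in the Sox9 values was not tested.

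The slope was also present in spots without duct RNA. There, Sox9 was at 12.9, 13.5 and 8.05 CPM from the zone 1 to the zone 3 part of AEG-1DMAC, a zone 3 over zone 1 log2 ratio of -0.68 (-1.08 to -0.27). In AEG-1fl/fl it was at 31.3, 22.3 and 18.7 CPM, a log2 ratio of -0.75 (-0.99 to -0.50). The intervals of the zone 1 and middle parts overlapped in AEG-1DMAC and not in AEG-1fl/fl. The difference between the libraries was -1.28 (-1.60 to -0.97) in the zone 1 part of these spots, -0.72 (-1.02 to -0.43) in the middle part and -1.21 (-1.57 to -0.87) in the zone 3 part. The Spp1 left in the full counts of these spots also sloped in AEG-1DMAC, at 19.0, 14.6 and 9.47 CPM. Its zone 3 over zone 1 log2 ratio was -1.01 (-1.36 to -0.65) there and -0.30 (-0.70 to 0.08) in AEG-1fl/fl. The part of this leftover RNA in the Sox9 slope was not tested.

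**Figure D4:**
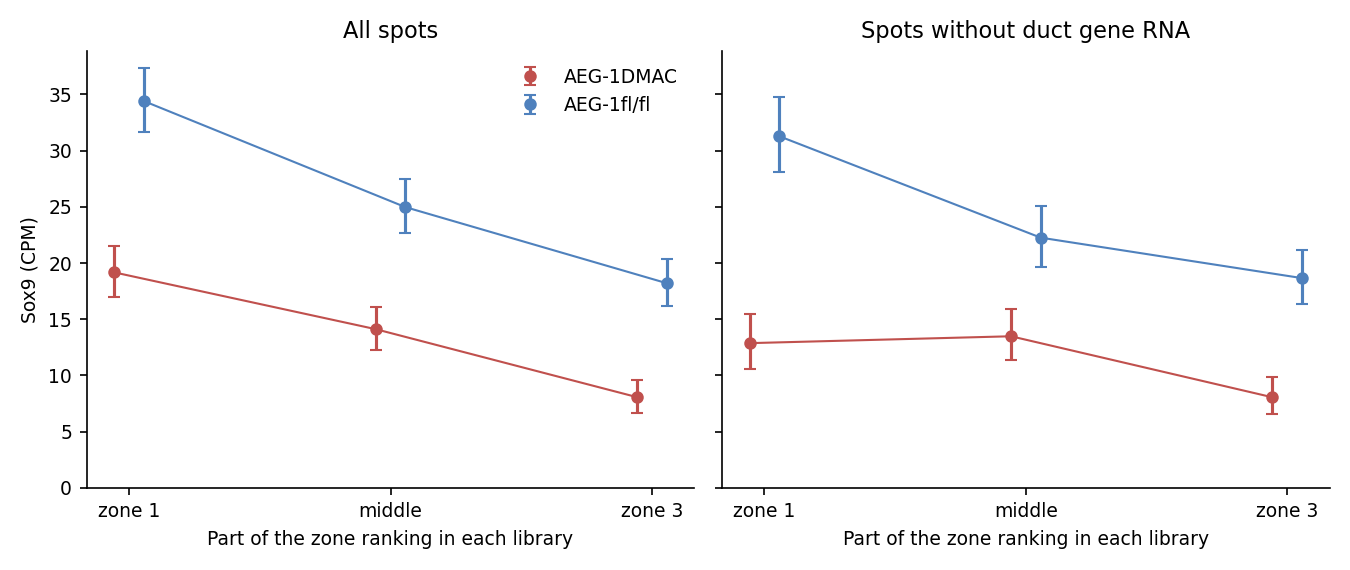
Sox9 level (CPM) in the 3 parts of the zone ranking of each library, over all spots (left) and over spots without duct gene RNA (right). Points are single libraries and bars are exact Poisson 95% intervals. AEG-1DMAC lies below AEG-1fl/fl in each part of both panels, and the zone 3 part is the lowest in each library, while the zone 1 and middle parts of AEG-1DMAC are close to each other in the right panel (12.9 and 13.5 CPM).

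Spp1 had a steeper slope along the lobule, with zone 3 over zone 1 log2 ratios of -2.57 (-2.74 to -2.40) and -2.04 (-2.22 to -1.87). It was at 132, 46.8 and 22.3 CPM from zone 1 to zone 3 in AEG-1DMAC and at 85.4, 63.7 and 20.8 CPM in AEG-1fl/fl. Spp1 was therefore higher in AEG-1DMAC in the zone 1 part, with a log2 ratio of 0.63 (0.53 to 0.73), and lower in the middle part, at -0.45 (-0.58 to -0.31). Of the duct-rich spots, 86.9% lay in the zone 1 part of AEG-1DMAC and 65.4% in that of AEG-1fl/fl, with 12.1% and 30.7% in the middle part, so the middle part of AEG-1fl/fl held a larger share of the duct-rich spots. Krt8 sloped the other way and little, from 48.8 to 55.6 CPM in AEG-1DMAC, a zone 3 over zone 1 log2 ratio of 0.19 (0.04 to 0.33), and from 48.0 to 60.6 CPM in AEG-1fl/fl (log2 ratio 0.34, 0.20 to 0.47). In spots without duct RNA the Krt8 slope was 0.26 (0.08 to 0.44) and 0.56 (0.39 to 0.72).

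Within spots without duct RNA, Sox9 was set against the markers of other cell types, by splitting these spots into 3 equal parts by each marker list's share of UMIs. By hepatocyte markers, Sox9 was at 9.28, 11.9 and 12.8 CPM from the lowest to the highest part in AEG-1DMAC and at 23.2, 22.5 and 25.4 CPM in AEG-1fl/fl, log2 ratios of the highest over the lowest part of 0.46 (0.07 to 0.85) and 0.13 (-0.11 to 0.37). By Kupffer cell markers it was at 9.64, 11.5 and 12.8 CPM and at 20.9, 22.8 and 27.8 CPM, log2 ratios of the highest over the lowest part of 0.40 (0.02 to 0.79) and 0.41 (0.17 to 0.66). By the other cholangiocyte genes it was at 11.3, 10.5 and 12.0 CPM and at 23.5, 23.5 and 24.2 CPM, log2 ratios of the highest over the lowest part of 0.09 (-0.29 to 0.47) and 0.04 (-0.20 to 0.29). By endothelial, stellate cell, portal fibroblast and smooth muscle markers the log2 ratios lay between -0.34 and 0.10 in both libraries, with an interval that left out 0 for portal fibroblast markers in AEG-1fl/fl alone (-0.25, -0.49 to -0.01). In each part of every list, AEG-1DMAC was lower than AEG-1fl/fl.

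The genes most like Sox9 over thinned spots, by Spearman correlation among 6933 genes that averaged 10 CPM or more, were hepatocyte genes in both libraries. In AEG-1DMAC over 2114 spots these were Mup20 (0.14), Alb (0.13), Hsd17b13 (0.13), Uox (0.13) and Cyp2f2 (0.12). In AEG-1fl/fl over 2434 spots they were Hpx (0.14), Cyp2f2 (0.14), Mup20 (0.13), Mup3 (0.12) and Aldh1b1 (0.11). Cyp2f2 and Hsd17b13 are among the zone 1 markers used in the ranking. These values are small and spots share a section and its chemistry, so the correlations are a description only. Mup genes form a family of similar sequences, and whether this affects the counts of Mup20 and Mup3 was not tested. The correlation of Sox9 with Spp1 was 0.11 in AEG-1DMAC and 0.07 in AEG-1fl/fl, and that of Sox9 with Krt8 was 0.02 and -0.02. The genes most like Spp1 were Mup20 (0.31), Apoa4 (0.24), Gas6 (0.22), Tagln (0.22) and Gsn (0.22) in AEG-1DMAC, and Mup20 (0.29), Apoa4 (0.25), Apoc3 (0.25), Tmsb4x (0.24) and Etnppl (0.21) in AEG-1fl/fl.

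Genes of the Notch pathway, of which Sox9 is a known target, were listed with ligands, receptors, nuclear partners and targets. Of 12 genes, 9 were compared. Of these, 4 were at least 1.5-fold lower in AEG-1DMAC, against 3.9% of all genes, and 0 were higher, against 5.28%. The median log2 ratio was -0.27, against 0.13 over all genes. The 4 were targets. Hes1, a repressor switched on by Notch, was at 14.3 CPM (650 UMIs) in AEG-1DMAC and 28.4 CPM (1427 UMIs) in AEG-1fl/fl (log2 ratio -0.99, -1.12 to -0.85). Heyl was at 4.62 and 9.30 CPM (210 and 468 UMIs), a log2 ratio of -1.01 (-1.25 to -0.77).

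Hey1 was at 1.25 and 2.48 CPM (57 and 125 UMIs), a log2 ratio of -0.99 (-1.46 to -0.52). Nrarp, a feedback inhibitor of the pathway, was at 2.24 and 3.46 CPM (102 and 174 UMIs), a log2 ratio of -0.62 (-0.99 to -0.26). The ligand and the receptors did not reach 1.5-fold: the log2 ratio was -0.23 (-0.42 to -0.05) for Jag1, -0.27 (-0.39 to -0.15) for Notch1 and 0.06 (-0.05 to 0.18) for Notch2. The nuclear partners Rbpj, at 0.42 (0.17 to 0.68), and Maml1, at 0.09 (-0.10 to 0.29), were not lower.

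By place, Hes1 resembled Sox9 in part. In spots without duct RNA, Hes1 was at 13.4 CPM in AEG-1DMAC and 27.4 CPM in AEG-1fl/fl (log2 ratio -1.03, -1.20 to -0.86), and Heyl was at 3.61 and 8.03 CPM, a log2 ratio of -1.15 (-1.48 to -0.84). In duct-rich spots the log2 ratio was -0.58 (-1.09 to -0.08) for Hes1 and -0.94 (-1.58 to -0.33) for Heyl. Hey1 and Nrarp were less far apart in spots without duct RNA, at -0.68 (-1.39 to -0.002) and -0.68 (-1.19 to -0.19). Their intervals held 0 in duct-rich spots, at -1.07 (-2.29 to 0.03, 10 and 26 UMIs) for Hey1 and -0.81 (-1.93 to 0.23, 12 and 26 UMIs) for Nrarp. In duct-rich over other spots, Hes1 had log2 ratios of 0.79 (0.36 to 1.20) in AEG-1DMAC and 0.35 (0.04 to 0.65) in AEG-1fl/fl, below those of Sox9. Jag1, the ligand, was enriched in duct-rich spots by 1.25 (0.78 to 1.70) in AEG-1DMAC and 1.95 (1.62 to 2.26) in AEG-1fl/fl. Between the libraries Jag1 in duct-rich spots was at 20.7 and 36.4 CPM, a log2 ratio of -0.81 (-1.35 to -0.29), and in spots without duct RNA the log2 ratio was -0.13 (-0.37 to 0.11).

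**Figure D5:**
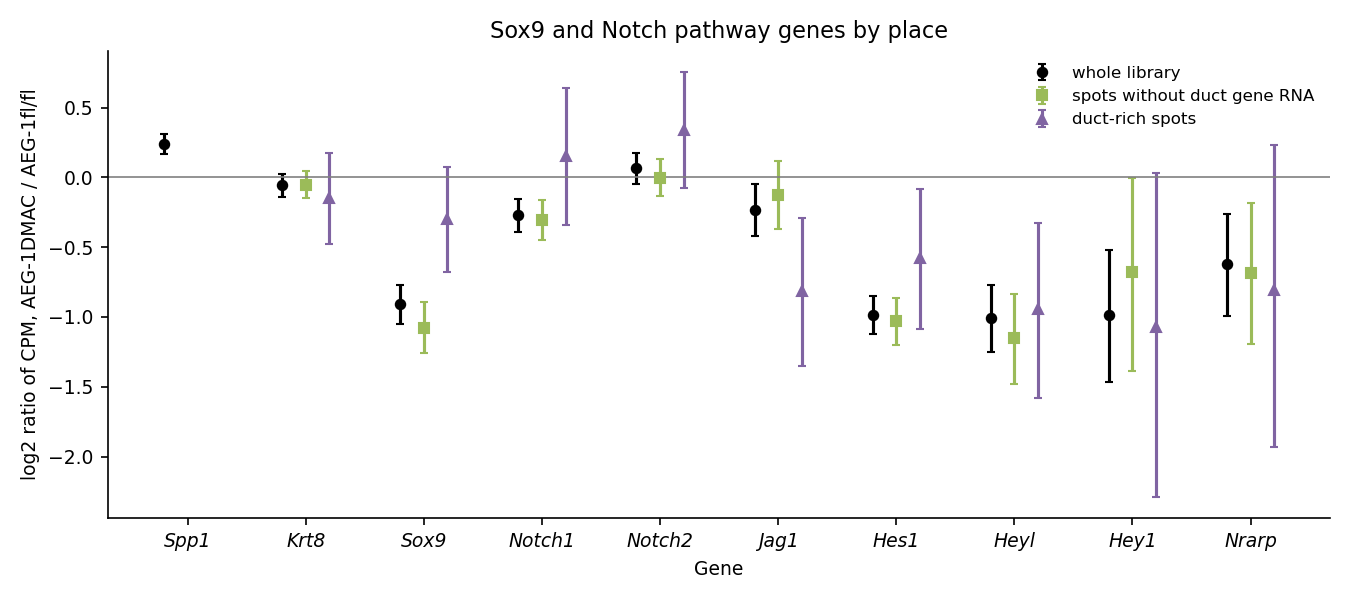
Log2 ratio of CPM, AEG-1DMAC over AEG-1fl/fl, for Spp1, Krt8, Sox9 and genes of the Notch pathway in the whole library (circles), in spots without duct gene RNA (squares) and in duct-rich spots (triangles). Spp1, which was used to choose both kinds of spots, is drawn for the whole library alone. Bars are exact 95% intervals of counting error. In spots without duct RNA, Sox9, Hes1 and Heyl lie near -1, Hey1 and Nrarp at -0.68, and Krt8 near 0.

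Of the Hippo and YAP genes, 11 of 12 were compared, 1 was at least 1.5-fold higher (5.28% of all genes) and 0 were lower (3.9% of all genes). The gene that was higher was Ccn2, a YAP target that encodes connective tissue growth factor, at 15.3 CPM (696 UMIs) in AEG-1DMAC and 7.89 CPM (397 UMIs) in AEG-1fl/fl (log2 ratio 0.96, 0.78 to 1.14). Yap1 was at 46.8 and 38.4 CPM, a log2 ratio of 0.29 (0.20 to 0.38), and Lats1, a kinase that restrains YAP, at 46.3 and 36.1 CPM, a log2 ratio of 0.36 (0.27 to 0.45). The median over the list, 0.12, was close to the 0.13 of all genes.

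Of the 14 other cholangiocyte genes, 10 were compared, of which 2 were at least 1.5-fold higher (5.28% of all genes) and 1 was lower (3.9% of all genes). Prom1 was at 2.33 and 1.43 CPM (106 and 72 UMIs), a log2 ratio of 0.70 (0.26 to 1.16). Pkhd1, which encodes fibrocystin of the duct cell cilium, was at 6.05 and 3.95 CPM (275 and 199 UMIs), a log2 ratio of 0.61 (0.35 to 0.88). With TMM factors neither reached 1.5-fold, and 0 genes of the list were higher. Cd24a was lower, at 2.16 and 3.30 CPM (98 and 166 UMIs), a log2 ratio of -0.61 (-0.99 to -0.24). The list had a median log2 ratio of 0.40 and its sum was at 34.8 and 32.8 CPM, a log2 ratio of 0.09 (-0.01 to 0.19).

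Of 10 genes compared whose proteins anchor keratin filaments or gather in keratin aggregates, 0 were at least 1.5-fold higher and 0 lower. Over all genes 5.28% were higher and 3.9% lower, so most genes of any kind were not called. The median log2 ratio of the list was -0.03. Some intervals left out 0 on either side: Pkp2 at -0.33 (-0.42 to -0.26), Ppl at -0.43 (-0.74 to -0.12), Plec at 0.40 (0.27 to 0.52) and Eppk1 at 0.28 (0.17 to 0.39). Sqstm1 (p62), which is found in keratin aggregates of hepatocytes, was at 276 and 271 CPM, and Tgm2, a transglutaminase that crosslinks keratins, at 92.4 and 96.1 CPM. Among 7 osteopontin receptors, 1 was at least 1.5-fold lower, against 3.9% of all genes. This was Itgb3, the integrin beta 3 chain, at 7.77 and 12.7 CPM (353 and 640 UMIs), a log2 ratio of -0.71 (-0.90 to -0.52). Itgb1 and Itgb5, which had the most UMIs, had log2 ratios of -0.06 (-0.12 to 0.00) and -0.06 (-0.13 to 0.02).

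Of the 48 keratin genes in the files, 35 had 0 UMIs in both libraries and 5 were compared: Krt7, Krt8, Krt10, Krt19 and Krt23. Of these 5, Krt23 was lower in AEG-1DMAC, at 2.40 and 3.72 CPM (109 and 187 UMIs), a log2 ratio of -0.63 (-0.99 to -0.28), and 0 were higher. Over all genes, 3.9% were lower and 5.28% higher. Krt10 was at 6.12 and 6.72 CPM, a log2 ratio of -0.14 (-0.37 to 0.10). Of 19 Sox genes, 9 were compared, of which 2 were lower (3.9% of all genes) and 1 was higher (5.28% of all genes). Sox18, a factor of endothelium, was lower like Sox9, at 4.16 and 7.01 CPM (189 and 353 UMIs), a log2 ratio of -0.75 (-1.02 to -0.50). Sox5 was higher, at 11.5 and 7.65 CPM, a log2 ratio of 0.59 (0.40 to 0.78), or 0.46 above the median of all genes.

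The remaining Sox genes had log2 ratios of -0.51 (-0.93 to -0.09) for Sox7, -0.37 (-0.92 to 0.17) for Sox4, -0.34 (-0.63 to -0.05) for Sox17, -0.18 (-0.46 to 0.09) for Sox12, 0.31 (0.03 to 0.59) for Sox13 and 0.50 (0.33 to 0.67) for Sox6. Sox17 and Sox7, which are endothelial factors together with Sox18, thus also lay below 0, while the summed endothelial markers were at 304 and 296 CPM. Clec4g held about as many UMIs as the other endothelial markers together. Of the 5 endothelial markers, 1 was at least 1.5-fold higher in AEG-1DMAC, against 5.28% of all genes, and 0 were lower, against 3.9%. It was Vwf, which encodes von Willebrand factor, at 15.3 and 10.0 CPM (log2 ratio 0.62, 0.45 to 0.78). With the TMM shift of -0.12, Vwf did not reach 1.5-fold. Vwf in duct-rich over other spots had a log2 ratio of 2.73 (2.48 to 2.98) in AEG-1DMAC and 0.90 (0.45 to 1.33) in AEG-1fl/fl.

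Other cell types that could lie in the sections were read from their markers. Markers of mesothelium, the covering of the liver, which also carries Krt7, Krt8, Krt18 and Krt19, had 12 UMIs in 10 AEG-1DMAC spots and 69 UMIs in 48 AEG-1fl/fl spots, and Wt1, which defines it, had 1 and 3. In the AEG-1fl/fl spots with a mesothelial UMI, Krt7 was at 10.6 CPM (12 of its 90 UMIs) against 1.59 CPM elsewhere, and Sox9 was at 26.5 against 25.9 CPM. In the AEG-1DMAC spots with such a UMI, Krt19 was at 47.9 CPM (11 of its 56 UMIs) against 0.995 CPM elsewhere, and Spp1 was at 549 against 64.6 CPM. Sox9 was at 52.3 CPM (12 UMIs) in these 10 spots against 13.6 CPM elsewhere. The part of mesothelium in the Krt7, Krt19 and Sox9 values was not tested. Of the gut epithelial markers, Cdx2 and Vil1 had 1 and 6 UMIs in AEG-1DMAC and 0 and 9 in AEG-1fl/fl, and Krt20 had 0 in both. Lgals4, which encodes a galectin, held nearly all UMIs of that list, at 16.3 and 23.5 CPM (742 and 1182 UMIs), a log2 ratio of -0.52 (-0.66 to -0.39). Kupffer cell markers summed to 561 and 541 CPM, with Marco lower in AEG-1DMAC at 13.9 and 36.1 CPM, and stellate cell markers to 321 and 328 CPM. Portal fibroblast markers summed to 120 and 106 CPM and smooth muscle markers to 27.4 and 25.6 CPM. Thy1 and Col15a1, 2 of 6 portal fibroblast genes compared, were at least 1.5-fold higher in AEG-1DMAC, against 5.28% of all genes. So were Acta2 and Myh11, 2 of 3 smooth muscle genes. The third, Tagln, had the most UMIs of that list and was lower (log2 ratio -0.24, -0.38 to -0.09). With the TMM shift of -0.12, Col15a1 (0.68), Acta2 (0.60) and Myh11 (0.62) did not reach 1.5-fold. The part of the amount of portal tract in the duct gene values was not tested.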

How the data were processed

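Raw counts of UMIs per gene and spot were deposited by the authors, made per the labels and the study's methods with Space Ranger 2.0.1 against mm10, with no normalisation. The submitters' notes also name Seurat 4.3.0. Spots with over 50000 UMIs, under 100 genes or over 7000 genes were removed, which took 9 of 2149 spots from AEG-1DMAC and 3 of 2543 from AEG-1fl/fl. The study's text gives 2149 and 2543 as the numbers after its filter, which equal the deposited numbers before it. The unit of comparison was a library, with the UMIs of its spots added up. Each total covers 1 section, so the interval of a ratio covers counting error only, and no p-value was computed.

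A gene was called different at 1.5-fold with its exact conditional 95% interval on the same side. Genes averaging under 1 CPM over both libraries were not compared. Zones were ranked as zone 3 minus zone 1 markers (Cyp2e1, Cyp1a2 and Oat against Pck1, Hal, Gls2, Cyp2f2, Hsd17b13 and Arg1). Thinning drew UMIs without replacement (seed 20). Spot positions were not used. Some genes of the other cholangiocyte list are not reported here by name. The members and gene lists were chosen with earlier results of these data known. Krt18 was listed with Krt8 as a pair, and the value planned for the pair rests on Krt8 alone. The genes that could be named were the members, list genes at least 1.5-fold apart or else the 2 with the most UMIs, Krt and Sox genes averaging 1 CPM or more, and the 5 most like Sox9 and Spp1. Further list genes are named for their role in the pathway, as the defining marker of a cell type or to show the spread within a list. Coordinates came from GENCODE M21 (GRCm38) by Ensembl identifier, and start windows from RefSeq (GRCm38.p6), which matched 4 of the 6 members. The calculation of ratios and intervals was tested on simulated data. Python 3.11.15, numpy 2.4.6, scipy 1.17.1, R 4.3.3 and edgeR 4.0.16 (for TMM factors only) were used. Alternatives were other scalings, spot filters, thinning depths, duct-rich shares, duct lists, zone markers and fold limits.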

Additional observations from a re-analysis of the deposited data

How the results depend on the processing

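Of 124 values under alternatives, 78 stayed within the 95% interval of the value reported (or, for a count, within 1.5 times of it), 46 moved beyond it and none changed sign after having excluded 0. The log2 ratio of Sox9 lay between -1.05 and -0.89 in the whole library and between -1.22 and -1.0 in spots without duct RNA, including 0 duct gene UMIs in unthinned counts, an alternative chosen after seeing the data. The whole-library Sox9 value moved with the 50 most abundant genes left out of the total, to -1.05, and Sox9 per duct RNA moved with thinned spots, to -1.31. With TMM factors, median-of-ratios size factors and the 50 genes left out, the log2 ratio was 0.11, 0.11 and 0.10 for Spp1, the same to 2 decimals for the duct gene sum (0.11, 0.11 and 0.10), and -0.18, -0.19 and -0.20 for Krt8, which is also the keratin pair value. With CPM averaged spot by spot and with thinned spots, Spp1 moved to 0.38 and 0.37 and the duct gene sum to 0.38 and 0.37.

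The duct enrichment of Sox9 moved to 2.44 in AEG-1DMAC and 1.62 in AEG-1fl/fl with the top 2% of spots, and to 1.45 and 0.82 with the top 10%. With the outer 10% of spots at each end of the zone ranking, the zone 3 over zone 1 log2 ratio of Sox9 moved to -1.88 in AEG-1DMAC and -1.15 in AEG-1fl/fl over all spots, and to -1.37 and -1.16 over spots without duct RNA. Thinning to 5000 UMIs, which lowers every share by construction, gave shares of spots in AEG-1DMAC of 18.6% for Spp1, 1.36% for Epcam, 0.987% for Krt7, 0.423% for Krt19, 24.4% for Krt8 and 6.53% for Sox9, and in AEG-1fl/fl of 14.5% for Spp1, 1.07% for Epcam, 0.632% for Krt7, 0.513% for Krt19, 23.8% for Krt8 and 12.4% for Sox9. At this depth the order of the libraries was turned for Krt19 and Krt8, with overlapping intervals. The log2 ratio of Sox9 in duct-rich spots, whose interval held 0, lay between -0.49 and -0.14, and its interval lay below 0 with TMM factors (-0.42), median-of-ratios size factors (-0.43), the 50 genes left out (-0.44), the top 10% of spots (-0.39) and spots ranked by other cholangiocyte genes (-0.49).

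Among the list counts, a limit of 2-fold left 0 higher and 0 lower of the other cholangiocyte genes, 1 lower of the Notch pathway (Heyl), 0 higher of the Hippo and YAP genes and 0 lower of the osteopontin receptors. A mean of at least 10 CPM left 0 higher and 0 lower of the other cholangiocyte genes and 1 lower of the Notch pathway (Hes1), and TMM factors left 0 higher of the other cholangiocyte genes. Apart from those settings whose construction shows it, the cause of a move was not tested. No paired analysis was possible because each genotype had 1 library. The rare duct genes, with 50 to 142 UMIs per library, are limited by depth.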
